A study of Mus musculus with 34 samples.

Results

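The genes described here are 37 genes of homologous recombination, the Fanconi anaemia pathway and the signalling that goes with them. They were taken by symbol from a fixed list, and all 37 were found among the 24223 rows of the count table made from Gprc5a-/- mice. The RNA came from tracheal epithelium brushed from mice that lack Gprc5a, an airway epithelial receptor gene. All 28 mice carried the deletion, and they differed in exposure to NNK, a nitrosamine of tobacco smoke given into the peritoneum at 50 mg/kg, 3 times per week for 8 weeks. Baseline mice (n = 6) were sampled before exposure, t0 mice (n = 6) at its end, and t2 (n = 5), t4 (n = 6) and t6 (n = 5) mice 2, 4 and 6 months after it, the last at the time lung adenocarcinomas form. A further 6 wildtype mice were sampled before exposure only. Per the labels the mice were 6 to 8 weeks old, and the series' design gives 8 weeks for the start of treatment. Each library was 1 mouse, named here by its group and animal number. No unexposed mice of the later ages entered the comparisons, which means that ageing and time since NNK cannot be told apart in any of them.

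Homologous recombination repairs a broken chromosome by copying the intact sister. The ends are trimmed by the MRE11-RAD50-NBN complex and its partners, ATM and ATR signal the damage, and BRCA2 takes part in the search for the sister. The Fanconi core complex attaches ubiquitin to FANCD2 and FANCI at crosslinked DNA and hands the lesion to the recombination proteins. Many of these genes are transcribed mainly in cells that are copying their DNA, and NNK, once activated, forms adducts on DNA.

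Depth was 15.6 M to 37.6 M counts per Gprc5a-/- library and 10.8 M to 24.0 M per wildtype library (M, 1000000 counts). All 37 genes passed the filter of at least 1 CPM (counts per 1000000 counts of the library, TMM-scaled) in at least 5 libraries. Gprc5a held 4 to 49 counts in 27 Gprc5a-/- libraries, but 238 in the library labelled t2 339. Wildtype libraries, which were processed separately, held 2115 to 8186. Whether the label of t2 339 is right was not tested. That library detected 14283 genes, and it alone held 0 counts for Exo1, Chek1, Rad54l, Fancb and Ube2t. A count of 0 there allows up to 0.097 CPM (3 counts, counting error only). Since all groups share 1 estimate of the spread in the tests, this library also touched comparisons it was not in, and the calls of single members that turned on it, between pairs of groups, are given with and without it. Haemoglobin genes made up 22.8% of the total of mouse 357 (t0), 25.5% of that of 371 (t4) and 15.3% of that of 349 (t6), and the ribosomal RNA gene Rn45s made up 14.8% of that of 365 (t6).

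The promoters of Rad51b, Atr and Chek2 are shown because these genes had the smallest p-values over the 5 groups among members for which a promoter was at hand. Each is the RefSeq window of 300 bases (GRCm38.p6, 250 before to 50 after the start), 5′ to 3′, with matches to the motifs below in capitals. Rad51b lies at chr12:79297032-79297331 (+), Atr at chr9:95857347-95857646 (+) and Chek2 at chr5:110839733-110840032 (+).
Rad51b: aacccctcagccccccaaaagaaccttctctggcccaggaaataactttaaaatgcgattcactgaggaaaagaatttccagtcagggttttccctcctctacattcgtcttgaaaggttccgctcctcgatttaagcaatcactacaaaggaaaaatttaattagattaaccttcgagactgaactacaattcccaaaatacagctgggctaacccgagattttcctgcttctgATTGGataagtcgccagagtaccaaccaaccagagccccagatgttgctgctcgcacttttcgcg
Atr: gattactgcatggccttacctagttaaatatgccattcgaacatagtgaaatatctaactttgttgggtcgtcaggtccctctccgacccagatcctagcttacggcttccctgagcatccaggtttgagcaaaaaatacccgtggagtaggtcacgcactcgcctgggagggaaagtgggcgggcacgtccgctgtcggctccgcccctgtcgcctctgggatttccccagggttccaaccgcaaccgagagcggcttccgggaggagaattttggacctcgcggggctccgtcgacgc
Chek2: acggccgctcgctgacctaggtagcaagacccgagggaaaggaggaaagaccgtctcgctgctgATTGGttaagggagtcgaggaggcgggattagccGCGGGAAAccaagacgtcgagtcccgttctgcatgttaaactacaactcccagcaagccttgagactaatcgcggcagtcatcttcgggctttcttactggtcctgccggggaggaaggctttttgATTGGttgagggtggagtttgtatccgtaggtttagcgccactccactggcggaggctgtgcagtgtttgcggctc
The motifs searched on both strands were CCAAT (the NF-Y box), the CHR element of cell cycle genes with the letters TTTGAA, and the E2F forms TTTCCCGC, TTTGGCGC, TTTGGCGG and TTCCCGCC, the last overlapping the first. The Rad51b window held 1 match, a CCAAT on the minus strand 15 bases before the start. Chek2 held CCAAT on the minus strand 186 and 26 bases before the start, and TTTCCCGC on the minus strand at 152. The Atr window had none. Shares were taken over the first listed window of each gene, which is also the one printed. Of the 37 genes, 28 had a window, and 8 of these 28 (28.6%) held at least 1 E2F form, against 3.78% of 27025 genes in the table. These were Bard1, Brca2, Chek1, Chek2, Fancb, Fancg, Fancm and Mdc1. CCAAT stood in 18 of 28 (64.3%) against 37.9% of all genes, and TTTGAA in 1 of 28 (3.57%), Bard1, against 18.1%.

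Levels per gene length, which can be compared between genes, were at hand for the wildtype mice only, in TPM (transcripts per 1000000, mean ± SD, n = 6). Fanca, which encodes a subunit of the Fanconi core, was the highest of the 37 at 45.5 ± 14.6 TPM. Rad51b followed at 25.2 ± 18.6 TPM and H2afx at 21.3 ± 10.5 TPM, with overlapping ranges from 10.9 to 60.6 and from 12.9 to 42.1 TPM. Topbp1 (16.6 ± 11.9 TPM) and Fance (13.6 ± 4.62 TPM) came next. At the other end, the helicase gene Brip1 stood at 0.17 ± 0.206 TPM, Bard1 at 0.255 ± 0.245 TPM and Rad54b at 0.392 ± 0.271 TPM. The core recombination genes Brca1 (0.897 ± 1.08 TPM), Palb2 (0.538 ± 0.156 TPM) and Brca2 (1.72 ± 1.49 TPM) were also low, and Mki67, a marker of dividing cells, was at 1.8 ± 2.66 TPM beside 215 ± 43.8 TPM for the ciliated-cell gene Foxj1. The 2 tables were processed separately, so wildtype values were not tested against Gprc5a-/- values.

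At the end of exposure, 8 of the 37 genes had changed from baseline, 3 upward and 5 downward. H2afx, Bard1 and Fancg rose, and Chek2, Fanca, Fancl, Atr and Nbn fell. The changes were split within pathways: the checkpoint genes held the clearest rise and 2 clear falls, and the Fanconi core held 1 rise and 2 falls. The call share of 21.6% stood beside 45.5% of all 14847 genes tested, 23.3% upward and 22.3% downward (edgeR's quasi-likelihood test, Benjamini-Hochberg adjusted p under 0.05), a lower share of these genes than of all genes tested; the difference in share was not tested. Among genes averaging at least 5 CPM the count was 7 of 21 members beside a background of 49.7%. The members' median log2 fold change was 0.16, against 0.02 over all genes tested. Libraries of t0 and baseline did not overlap for 5 members, 2 above and 3 below, beside 25.8% of all genes. Without t2 339 the count was 12 (4 rose and 8 fell, all 8 calls kept) beside a background of 52.0%; Fanci joined the rises and Atm, Fancb and Fancm the falls.

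**Figure D1:**
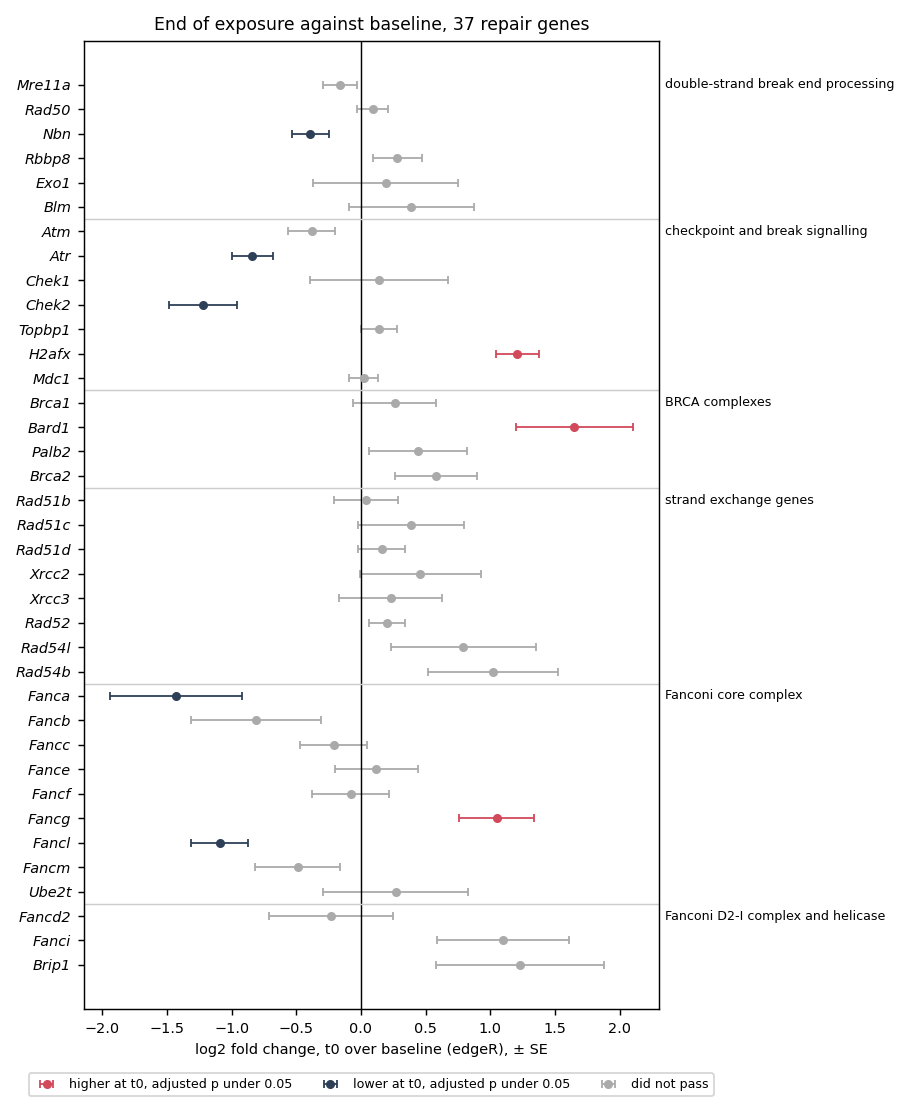
Log2 fold change of t0 over baseline (x axis, edgeR, bars are SE) for the 37 genes by role (y axis; n = 6 libraries each). Red marks the 3 genes that rose, dark blue the 5 that fell and grey the 29 that did not pass; H2afx stands at 1.21 and Chek2 at -1.22.

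Among the checkpoint genes, H2afx, which encodes the histone variant phosphorylated around breaks, was the member with the smallest p-value over the 5 groups. Its libraries held 18.7 to 37.3 CPM at baseline (median 24.2), 40.8 to 88.6 at t0 (median 58.3), and 47.6, 34.1, 42.1, 43.6 and 57.2 CPM at t2 in mice 334, 339, 347, 358 and 360. At t4 they held 31.8 to 56.4 CPM (median 45.6), and at t6 29, 41.2, 37.7, 29.9 and 30.3 CPM in mice 341, 349, 365, 366 and 368. Every t0 library was above every baseline library, and the t6 libraries overlapped baseline. H2afx rose at t0 by 1.21 ± 0.17 on the log2 scale (SE; adjusted p = 3.2e-06), at t2 by 0.80 (adjusted p = 0.0031) and at t4 by 0.81 (adjusted p = 0.0018), and at t6 it was below t0 (log2 -0.83, adjusted p = 0.0007).

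The kinase gene Atr, whose product answers stalled replication forks, moved the other way. Its levels were 23.9 to 29.2 CPM at baseline (median 25.4), 10.1 to 23.8 at t0 (median 13.1), 20.5, 23.8, 27.7, 18.2 and 19.4 CPM at t2, 21.9 to 29.9 at t4 (median 24.8) and 33.4, 24.3, 24.6, 26.7 and 25.9 CPM at t6. All 6 t0 libraries lay under the lowest baseline library, although t0 359 at 23.8 CPM came close to it and the other 5 reached 17.1 CPM at most. Atr fell at t0 by 0.84 ± 0.16 on the log2 scale (adjusted p = 0.00014) and stood higher at t6 than at t0 (log2 0.88, adjusted p = 0.00016) and higher at t2 than at t0 (log2 0.58, adjusted p = 0.0096).

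Chek2, the effector kinase that ATM activates, gave 22.9 to 33.5 CPM at baseline (median 26.9), 7.01 to 23.9 at t0 (median 9.21), 11, 10.7, 22.2, 15.8 and 20.3 CPM at t2, 14.3 to 34.2 at t4 (median 22.1) and 31.4, 25.7, 33.9, 29.8 and 22.5 CPM at t6. The t0 value of 23.9 CPM was again t0 359, the only t0 library to reach the baseline range. Its fall at t0 was -1.22 ± 0.26 on the log2 scale (adjusted p = 0.00033), and -1.57 (adjusted p = 1.9e-06) without t0 359. By t6 it stood above t0 (log2 1.29, adjusted p = 0.00034). The call at t2 (log2 -0.77, adjusted p = 0.042) was lost on leaving out any of 8 single libraries, with an adjusted p up to 0.11.

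Atm, the kinase that responds to double-strand breaks, was lowest later. It held 23.5 to 33.7 CPM at baseline (median 26), 15.7 to 24.3 at t0 (median 22), 17.8, 9.03, 19.8, 18 and 15.9 CPM at t2, 10.4 to 18.4 at t4 (median 16.2) and 26, 19, 17.1, 19.1 and 31.6 CPM at t6. No t2 or t4 library reached the baseline range, while at t6 2 of 5 did. It fell by 0.77 ± 0.19 on the log2 scale at t2 (adjusted p = 0.0054) and by 0.81 ± 0.18 at t4 (adjusted p = 0.0022), and without t2 339 by 0.61 at t2 (adjusted p = 0.013) and by 0.38 at t0 (adjusted p = 0.034). The ATR activator gene Topbp1 averaged 33.7 ± 3.82 CPM at t0 and 30.5 ± 3.28 at baseline, and was lower at t6 than at t0 (log2 -0.38, adjusted p = 0.036), a call that 7 single libraries could end. Mdc1, a scaffold at marked breaks, had group means from 39.8 to 46.6 CPM and no call, and Chek1, the kinase under ATR, ranged from 0.755 to 1.52 CPM in its group means and, without t2 339, was lower at t6 than at t0 (log2 -1.01, adjusted p = 0.025).

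**Figure D2:**
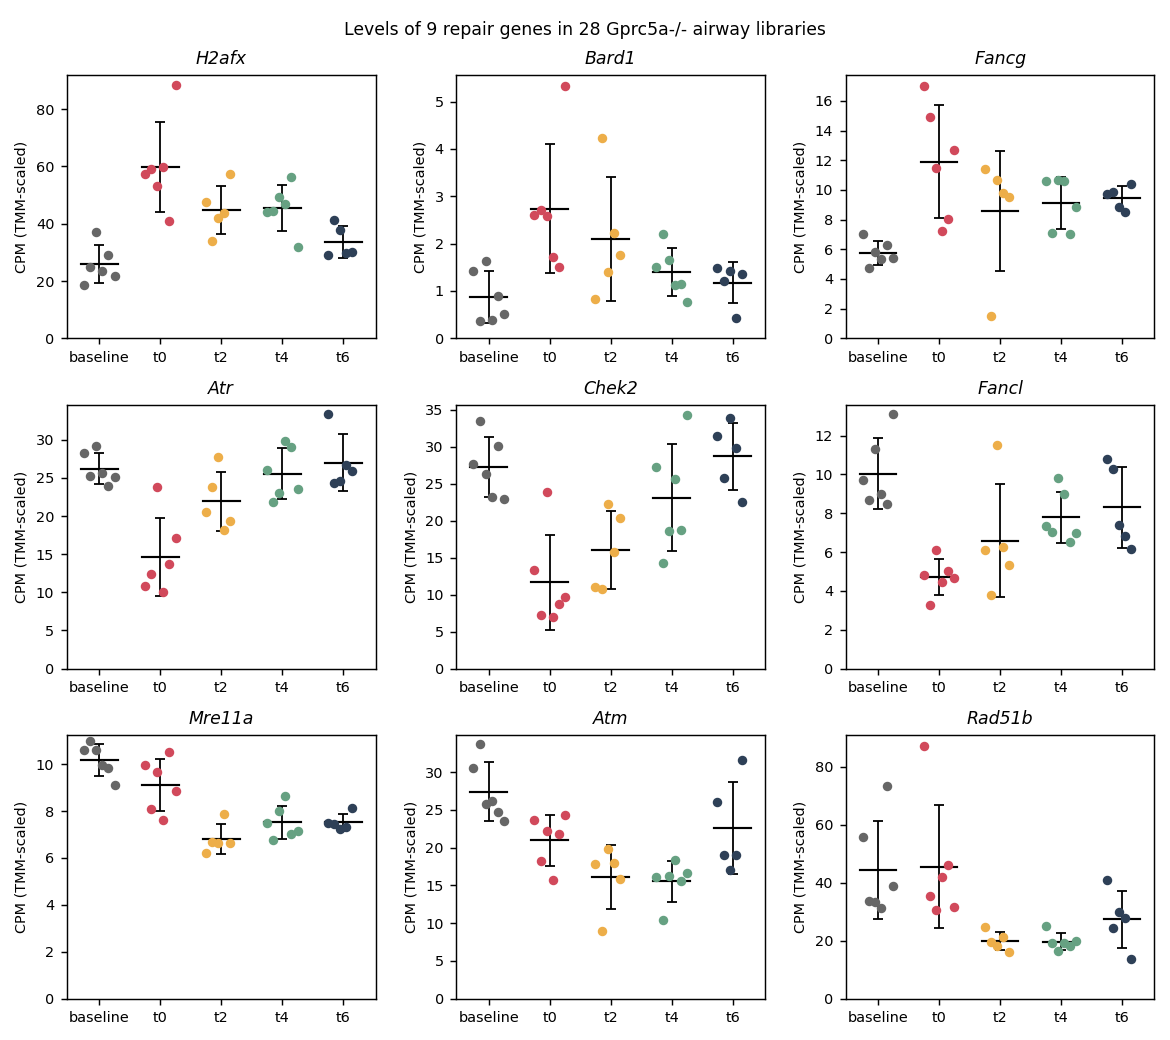
Levels in CPM (y axis, linear) of 9 genes in each of the 28 Gprc5a-/- libraries by group (x axis); points are mice, horizontal bars the mean and whiskers the SD. Atr, Chek2 and Fancl are lowest at t0, whereas Atm and Rad51b are lowest at t2 and t4. Mre11a is lowest at t2 and about as low at t6 as at t4.

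Of the end-processing genes, Mre11a, the nuclease of the MRE11-RAD50-NBN complex, was the member called at each later time. Baseline libraries held 9.09 to 11 CPM (median 10.3) and t0 libraries 7.63 to 10.5 CPM (median 9.28). The t2 libraries held 6.2, 6.67, 6.64, 7.88 and 6.64 CPM, the t4 libraries 6.78 to 8.64 (median 7.31) and the t6 libraries 7.49, 7.44, 7.24, 7.31 and 8.13 CPM. All 16 later libraries were under every baseline library. The falls were 0.58 ± 0.14 on the log2 scale at t2 (adjusted p = 0.0043), 0.44 ± 0.13 at t4 (adjusted p = 0.019) and 0.44 ± 0.14 at t6 (adjusted p = 0.043). At t6 the call was lost on leaving out any of 12 single libraries, with an adjusted p up to 0.092 and a log2 change of at least 0.41 downward throughout. Of 11 other settings of scaling, filter, tool or fit, 6 lost the t6 call (adjusted p up to 0.35). The t2 and t4 calls were lost in 2 each (adjusted p up to 0.099 and 0.21).

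Nbn, the subunit that links the complex to ATM, fell slightly at t0. It held 15.1 to 22.1 CPM at t0 (median 15.9) against 20.1 to 27.5 CPM at baseline (median 21.7), overlapping through t0 359 alone. The change was -0.39 ± 0.14 on the log2 scale (adjusted p = 0.02), and -0.33 (adjusted p = 0.06) without baseline 356. Later libraries held 16.5, 31.3, 20.7, 20.1 and 16.5 CPM at t2, 17.6 to 21 at t4 (median 18.9) and 16.7, 19, 19.6, 19.6 and 17.3 CPM at t6. The third subunit gene, Rad50, kept group means between 20.8 and 23.2 CPM, and its t0 change was 0.09 ± 0.12 on the log2 scale.

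Rbbp8 encodes CtIP, which starts the trimming of ends. It had 14.9 to 21 CPM at baseline (median 17.6), 16.5 to 27.6 at t0 (median 21.8), 15.1, 11.8, 11.9, 21.8 and 10.9 CPM at t2, 10.5 to 17.2 at t4 (median 12.6) and 10.8, 13, 12.8, 9.75 and 21.2 CPM at t6. One mouse at t2 (358) and 1 at t6 (368) stayed at 21.8 and 21.2 CPM while the others did not exceed 15.1 CPM. With all libraries it was not called against baseline at any time. Without t6 368 it was called lower at t6 (log2 -0.63, adjusted p = 0.031, against -0.41 and 0.2 with all libraries) and at t4 (log2 -0.46, adjusted p = 0.045), and without t4 336 at t4 (log2 -0.56, adjusted p = 0.046). It was lower at t2 (log2 -0.61, adjusted p = 0.018) and t6 (log2 -0.70, adjusted p = 0.0061) than at t0. The nuclease gene Exo1 averaged 2.28 ± 0.651 CPM in baseline, 2.6 ± 1.2 CPM in t0, 1.54 ± 1.17 CPM in t2, 1.2 ± 0.568 CPM in t4 and 1.04 ± 0.282 CPM in t6 mice; its t6 libraries all lay under baseline, yet its adjusted p there was 0.27. With all libraries Exo1 was not called at t6 against t0, and without t2 339 it was lower (log2 -1.32, adjusted p = 0.0096). The helicase gene Blm had group means from 1.14 to 2.34 CPM and no call.

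In the BRCA complexes, Bard1, the obligate partner of BRCA1, gave the largest fold change of the 37 at t0. It held 1.51 to 5.32 CPM at t0 (median 2.6), from 33 to 129 counts, against 0.366 to 1.63 CPM at baseline (median 0.699), from 8 to 47 counts. The rise was 1.65 ± 0.45 on the log2 scale (adjusted p = 0.0041), and 1.35 (adjusted p = 0.019) without t0 375, the highest library. Later values were 0.837, 4.24, 1.41, 2.23 and 1.77 CPM at t2, with the 4.24 in t2 339, 0.767 to 2.21 at t4 (median 1.32) and 1.48, 1.22, 1.42, 0.426 and 1.35 CPM at t6. Against baseline, Bard1 at t2 was not called with all libraries or without t2 339. It was called higher without baseline 345 (log2 1.54, adjusted p = 0.03), for example, and without t0 375 (log2 1.27, adjusted p = 0.049). Bard1 was lower at t6 than at t0 (log2 -1.21, adjusted p = 0.043), a call lost on leaving out any of 9 single libraries, with an adjusted p up to 0.14 (without t0 375).

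Brca2, a central gene of recombination, had 1.96 to 4.72 CPM at baseline (median 2.38), 3.17 to 5.1 at t0 (median 4.51), 1.67, 1, 2.44, 0.557 and 2.39 CPM at t2, 0.969 to 2.44 at t4 (median 2.06) and 3, 2.39, 2.68, 2.74 and 3.13 CPM at t6. All t2 libraries lay under all t0 libraries, and the difference passed (log2 -1.41 ± 0.35, adjusted p = 0.0026), whereas t0 against baseline did not pass. Brca1 averaged 5.08 ± 1.89 CPM at t0 and 4.24 ± 1.24 at baseline (log2 0.26 ± 0.32, adjusted p = 0.53), and Palb2, which bridges BRCA1 and BRCA2, 2.37 ± 0.91 CPM at t0 and 1.75 ± 0.759 at baseline (log2 0.44 ± 0.38, adjusted p = 0.35).

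The genes Rad51b, Rad51c, Rad51d, Xrcc2, Xrcc3, Rad52, Rad54l and Rad54b act in strand exchange or help it. With all libraries, no member among them was called at t0 by edgeR, DESeq2 or limma, and 0 of 8 had an unadjusted p under 0.05. Rad51b changed later: it held 31.2 to 73.5 CPM at baseline (median 36.3), 30.6 to 87.3 at t0 (median 38.8), 24.6, 19.6, 18.2, 21.2 and 16.1 CPM at t2, 16.5 to 25.1 at t4 (median 19.3) and 41.1, 24.4, 29.8, 27.9 and 13.6 CPM at t6. Every t2 and t4 library was under every baseline and t0 library, and at t6 1 of 5 libraries reached the baseline range. It fell by 1.15 ± 0.27 on the log2 scale at t2 (adjusted p = 0.0036) and by 1.17 ± 0.25 at t4 (adjusted p = 0.002). The difference of t6 from t0 (log2 -0.73, adjusted p = 0.028) became -0.44 (adjusted p = 0.14) without t0 332, the highest library, and it also missed the threshold without t6 349 (adjusted p = 0.059) or t6 368 (adjusted p = 0.09). Against baseline, t6 did not pass with all libraries and did without t6 341 (log2 -0.89, adjusted p = 0.048).

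Rad51c, which works in complexes with Rad51b, Rad51d, Xrcc2 and Xrcc3, had 1.74 to 3.16 CPM at baseline (median 2.36), 1.6 to 4.67 at t0 (median 2.96), 2.55, 0.227, 2.48, 2.6 and 1.9 CPM at t2, 0.753 to 3.04 at t4 (median 1.33) and 1.41, 1.53, 1.2, 0.731 and 0.948 CPM at t6. The t6 libraries lay under every t0 and every baseline library, and t6 was lower than t0 (log2 -1.43 ± 0.44, adjusted p = 0.012). Against baseline the t6 change was -1.04 (adjusted p = 0.14), and it passed without t2 339 (adjusted p = 0.03). Xrcc3, the partner of Rad51c, averaged 17.7 ± 5.32 CPM at t4 and 9.76 ± 1.62 at baseline with no overlap; its log2 change of 0.86 had an adjusted p of 0.12, and 0.002 without t2 339. Counts of Xrcc3 may include reads of Klc1, which overlaps it, since the use of strand is not given in the sources used here. Rad51d had group means from 16.2 to 22.5 CPM and Rad52, which helps to anneal single strands, from 8.02 to 9.24 CPM, and no test of either passed. The low members Xrcc2, Rad54l and Rad54b had t0 means of 1.92 ± 1.07, 2.89 ± 1.4 and 1.6 ± 1.15 CPM, against baseline means of 1.39 ± 0.222, 1.66 ± 0.746 and 0.783 ± 0.365 CPM. They had no call at t0 with all libraries, and Rad54b was called higher without t0 367 (log2 1.23, adjusted p = 0.044). Of the motor protein genes Rad54l and Rad54b, Rad54b was lower at t6 than at t0 (log2 -1.33, adjusted p = 0.049), a call that leaving out any of 20 single libraries ended, and Rad54l, not called with all libraries, was lower at t6 than at t0 without t2 339 (log2 -1.42, adjusted p = 0.0054).

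In the Fanconi core complex, Fancl, the ubiquitin ligase subunit, fell without overlap. It held 3.26 to 6.09 CPM at t0 (median 4.75) against 8.46 to 13.1 CPM at baseline (median 9.36), a change of -1.09 ± 0.22 on the log2 scale (adjusted p = 0.00029). Later it held 6.12, 3.79, 11.5, 6.24 and 5.31 CPM at t2, 6.53 to 9.83 at t4 (median 7.2) and 10.8, 10.3, 7.42, 6.85 and 6.18 CPM at t6, above t0 at t6 (log2 0.81, adjusted p = 0.0069). Fanca, whose product binds FANCG within the core, held 3.53 to 25.9 CPM at t0 (median 7.94) against 13.8 to 42.6 CPM at baseline (median 28.5). Its t0 libraries overlapped baseline through t0 359 (25.9 CPM), the other 5 reaching 12.2 CPM at most. The fall was 1.43 ± 0.51 on the log2 scale (adjusted p = 0.024); it missed the threshold without baseline 355, t0 367 or t0 374 (adjusted p = 0.053 to 0.054) and was -1.97 (adjusted p = 0.0028) without t0 359. At later times Fanca held 19.6, 0.907, 36.2, 21 and 38.8 CPM at t2, the 0.907 in t2 339, 21.5 to 42.7 at t4 (median 31.7) and 25.8, 17.5, 33.6, 36.2 and 21.7 CPM at t6. Without t2 339, both were higher at t2 than at t0 (Fancl log2 0.63, adjusted p = 0.029; Fanca log2 1.48, adjusted p = 0.0065), and Fanca also without t0 359 (log2 1.71, adjusted p = 0.014). Fancl and Fanca overlap Vrk2 and Zfp276, and reads of these neighbours may be counted with them. The same limit holds for Atr (overlapping 1700065D16Rik), Rad51c (Mir8115), Rad54b (Fsbp) and Rad54l (Lrrc41).

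Fancg, the subunit that binds FANCA, rose. It held 7.22 to 17 CPM at t0 (median 12.1) against 4.75 to 7 CPM at baseline (median 5.6), with no overlap, a change of 1.05 ± 0.29 on the log2 scale (adjusted p = 0.0041). At t2 it held 11.4, 10.7, 9.81 and 9.52 CPM in 4 mice and 1.52 in t2 339, at t4 7.02 to 10.7 CPM (median 9.69) and at t6 9.7, 9.89, 8.84, 8.5 and 10.4 CPM. Apart from t2 339, every later library was above the highest baseline library. The adjusted p was 0.1 at t4 and 0.14 at t6 with all libraries; without t2 339 Fancg was called at t2 (log2 0.85, adjusted p = 0.0035), t4 (log2 0.67, adjusted p = 0.0072) and t6 (log2 0.72, adjusted p = 0.0098).

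Fancb, an X-linked core subunit, ran low at all 4 times, averaging 3.39 ± 0.682 CPM before exposure, then 1.93 ± 0.446 CPM (t0), 1.27 ± 0.905 CPM (t2), 1.4 ± 0.628 CPM (t4) and 1.55 ± 0.309 CPM (t6). Its libraries were under every baseline library at each time, with adjusted p of 0.19, 0.063, 0.078 and 0.2; without t2 339, where it had 0 counts, all 4 passed (adjusted p = 0.022, 0.021, 0.003 and 0.016). Fancm, the helicase that anchors the core to DNA, averaged 5.09 ± 0.945 CPM at t0 and 7.15 ± 1.38 at baseline and was called at t0 (log2 -0.49, adjusted p = 0.02) and t4 (log2 -0.61, adjusted p = 0.012) without t2 339, and at neither with all libraries. Fancc, Fance, Fancf and Ube2t, the last the ubiquitin-conjugating enzyme of the pathway, gave t0 changes from -0.21 to 0.27 on the log2 scale, and none was called in any of the 6 comparisons.

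FANCD2 and FANCI are the proteins that the core modifies. Fancd2 averaged 4.62 ± 1.18 CPM before exposure, then 3.92 ± 1.98 CPM (t0), 3.76 ± 2.75 CPM (t2), 5.98 ± 1.95 CPM (t4) and 7.92 ± 1.35 CPM (t6). Fanci averaged 1.68 ± 0.898 CPM before exposure, then 3.58 ± 1.49 CPM (t0), 3.12 ± 2.95 CPM (t2), 1.94 ± 0.477 CPM (t4) and 1.58 ± 0.309 CPM (t6). The helicase gene Brip1 had 2.32 ± 1.21 CPM at t0 and 0.987 ± 0.553 at baseline. edgeR and DESeq2 called 0 of these 3 at t0, limma called 1, and 1 had an unadjusted p under 0.05. Without t2 339, Fancd2 was higher (log2 1.01, adjusted p = 0.015) and Fanci (log2 -1.18, adjusted p = 0.043) and Brip1 (log2 -1.45, adjusted p = 0.047) were lower at t6 than at t0. Fanci overlaps Polg.

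After the end of exposure edgeR called 5, 4 and 1 of the 37 genes against baseline at t2, t4 and t6, beside 8 at t0. The order depended on the method at t2, where DESeq2 called 9 beside 8 at t0. Limma with a pseudocount of 0.1 called 9 at both. For all genes the shares at t2 and t0 were 24.4% and 48.2% by DESeq2, and 22.2% and 45.8% by limma. At each of t0, t2 and t4, 10 members had an unadjusted p under 0.05. At t2 H2afx rose, and Rad51b, Atm, Chek2 and Mre11a fell: 5 of 37 (13.5%) beside a background of 19.9% (11.2% upward and 8.73% downward). Without t2 339 the count at t2 was 6, beside a background of 22.2%. Fancg and Fancb were then called and Chek2 was not (adjusted p = 0.093). At t4 H2afx rose and Rad51b, Atm and Mre11a fell: 4 of 37 (10.8%) beside 19.6% (1488 genes upward, and 1419, or 9.56%, downward). The count at t4 was 8 without t2 339, beside a background of 26.8%. Fancg and Xrcc3 then joined the rises and Fancb and Fancm the falls. At t6 Mre11a alone fell: 1 of 37 (2.7%) beside 8.83% (4.54% upward and 4.29% downward), with 7 at an unadjusted p under 0.05, 1 call by DESeq2 and 2 by limma with a pseudocount of 1. Without t2 339 the count at t6 was 4, namely Fancg upward and Fancb, Mre11a and Rad51c downward, beside a background of 13.8%. The members' median log2 fold change was -0.18 at t2, -0.30 at t4 and -0.13 at t6, against 0.02, 0.01 and -0.01 over all genes tested.

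Libraries of a later time and of baseline did not overlap for 5 members at t2 (all below baseline), 6 at t4 (2 above and 4 below) and 6 at t6 (1 above and 5 below). The backgrounds were 11.9%, 13.0% and 9.39% of genes. At t6 the 5 below were Mre11a, Nbn, Exo1, Rad51c and Fancb, and Fancg was the 1 above.

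**Figure D3:**
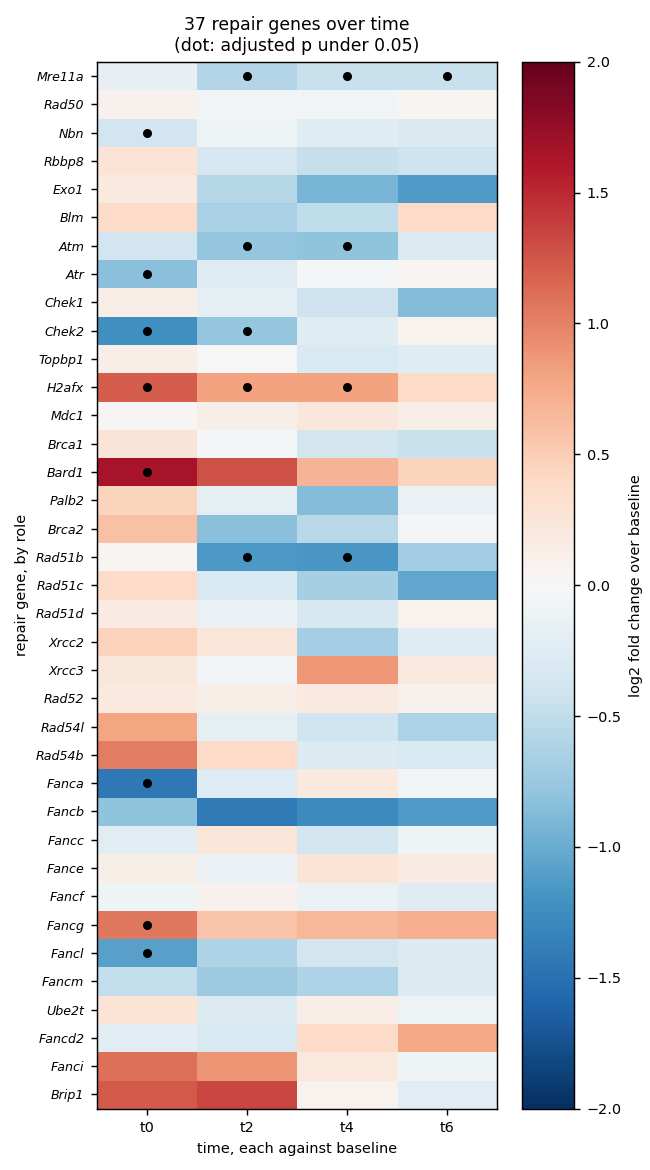
Log2 fold change over baseline (colour) of the 37 genes (rows, by role) at t0, t2, t4 and t6 (columns); a dot marks an adjusted p under 0.05. Chek2, Fanca, Fancl and Atr are lowest at t0, Rad51b and Atm at t2 and t4, and the number of dots goes from 8 at t0 to 5, 4 and 1 at the later times.

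Set against t0 directly, which shares its libraries with the comparison of t0 with baseline, 11 of 37 members differed at t6 (29.7%, beside 38.7% of all genes, 18.2% upward and 20.5% downward). Atr, Chek2, Fancl and Fanca were higher at t6, and H2afx, Rbbp8, Rad51c, Rad51b, Topbp1, Bard1 and Rad54b were lower. The median was -0.32 over the members and -0.06 over all genes. The call of Fanca at t6 against t0 (log2 1.39, adjusted p = 0.039) was lost without any of 7 single libraries, with an adjusted p up to 0.082. The count was 17 without t2 339 (all 11 kept, beside a background of 45.5%) and 6 without t0 332. Between t2 and t0, 5 of 37 differed (13.5%, beside 29.9%, 15.7% upward and 14.2% downward): Atr was higher at t2, and Rad51b, Brca2, Rbbp8 and Mre11a were lower. The count was 7 without t2 339, beside a background of 30.5%, with Fanca and Fancl added. The call of Mre11a was lost without t0 374 (adjusted p = 0.051), and that of Rbbp8 without t2 347 or t2 360 (adjusted p = 0.051 and 0.056). The test over all 5 groups called 13 of 37 (35.1%, beside 56.8%), 22 without t2 339 (beside 65.1%) and 9 without t0 375 (beside 53.0%).

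Other genes of these pathways, from lists chosen with earlier results known, also split in both directions at t0. So did all genes tested, of which 45.5% were called, 23.3% upward and 22.3% downward. The lists below had 29%, 25%, 35% and 33.3% of their tested genes called, in the order given. Each share was below that of all genes, and the difference was not tested. Of 31 other recombination genes, 4 rose and 5 fell. Psmc3ip, a cofactor of recombination, fell by 1.56 on the log2 scale (adjusted p = 2.1e-05) and Swi5 by 0.74 (adjusted p = 0.00031), while Slx4, a nuclease scaffold, rose by 0.69 (adjusted p = 0.001). Of 12 other Fanconi genes tested, 2 rose and 1 fell: Rev3l, the catalytic subunit of a polymerase that bypasses lesions, fell by 1.21 (adjusted p = 1e-06), and Ercc4, a nuclease, rose by 0.43 (adjusted p = 0.0023), as did Uhrf1 by 0.73 (adjusted p = 0.007). Of 20 other checkpoint genes, 4 rose and 3 fell, among them Trp53bp1 (log2 -0.58, adjusted p = 2.8e-05) and Rif1 (log2 -0.98, adjusted p = 0.00013), which limit end trimming, and Cdc25a (log2 0.65, adjusted p = 0.00036), a phosphatase that drives the cell cycle. Of 9 genes of non-homologous end joining, the competing route, 1 rose and 2 fell: Lig4, its ligase, fell by 0.98 (adjusted p = 0.0001), Xrcc5 fell by 0.63 (adjusted p = 0.0054) and Polm rose by 0.44 (adjusted p = 0.028, and up to 0.079 without any of 6 single libraries). Lig4 was also lower than baseline at t2 (log2 -0.69, adjusted p = 0.013), t4 (log2 -0.80, adjusted p = 0.0034) and t6 (log2 -0.91, adjusted p = 0.0032).

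The cell make-up of the brushings, read from marker genes, differed between the groups. In bulk RNA, fewer cells of a type and less RNA per cell cannot be told apart. Summed over 11 ciliated-cell markers, 5 t0 libraries held 510 to 655 CPM and t0 359 held 1897 CPM, against 2744 to 3845 CPM at baseline; 10 of the 11 fell and Mcidas rose. Atr, Chek2 and Fanca had their highest t0 value in t0 359 as well. Later sums were 2060 to 4269 CPM at t2, 3312 to 4864 CPM in t4 mice and 2998 to 3985 CPM in t6 mice. Airway epithelial markers (13 genes) summed to 19187 to 29993 CPM at t0 against 60797 to 86095 CPM at baseline, with 2 that rose and 7 that fell among the 13. Their sum stayed under every baseline library at t2 (36645 to 58929 CPM) and t4 (34701 to 58355 CPM). At t6 it was 26320 to 63738 CPM. The single genes split: 3 rose and 1 fell at t2, 3 rose and 3 fell at t4, and 1 rose and 2 fell at t6. Their median log2 fold change against baseline was 0.04 at t2, 0.27 at t4 and -0.15 at t6. The part of these changes in the falls of Atr, Chek2, Fancl, Fanca and Nbn at t0, or in the later falls of Mre11a, Atm and Rad51b, was not tested.

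**Figure D4:**
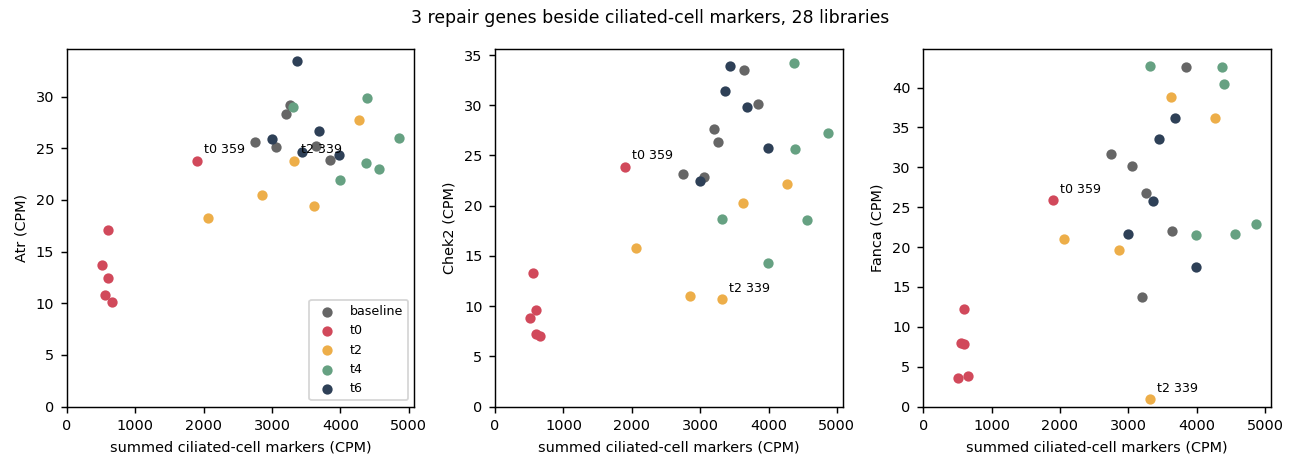
CPM of Atr, Chek2 and Fanca (y axes) against the summed CPM of 11 ciliated-cell markers (x axis) in the 28 Gprc5a-/- libraries, coloured by group. The 5 t0 libraries with sums of 510 to 655 CPM are the lowest 5 for Atr, at no more than 17.1 CPM, t0 359 sits at 1897 CPM with 23.8 CPM of Atr, and t2 339 is lowest for Fanca.

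Cycling-cell markers (20 genes) summed to 282 to 732 CPM at t0 against 167 to 297 CPM at baseline; 15 of 20 rose and the other 5 did not pass. The highest sum was in t0 375, which also held the highest t0 value of 15 of the 37 members and a T and NK cell marker sum of 173 CPM. At t6 the cycling sum was 156 to 230 CPM, with 17 of 20 markers lower than at t0. The 4 genes Brca1, Bard1, Palb2 and Brca2 summed to 6.94 to 14.3 CPM at baseline, 10.3 to 22.7 at t0 (the highest in t0 375) and 6.55 to 11.2 at t6. The 9 genes listed with the core, Ube2t among them, summed to 47.3 to 78.6 CPM at t0 and 69.2 to 97.4 at baseline. Much of that difference lay in Fanca, which averaged 10.2 CPM at t0 and 27.9 at baseline. Of the 9, 1 rose and 2 fell, and Fancg averaged 11.9 CPM at t0 and 5.76 at baseline. Macrophage markers summed to 1082 to 2590 CPM at t0 against 412 to 703 CPM at baseline (8 of 9 rose). T and NK cell markers gave 11.9 to 173 CPM at t0 against 2.67 to 13.5 at baseline (7 of 8 rose), and B cell markers 11.3 to 66.8 CPM at t0 against 2.43 to 8.81 at baseline (3 of 5 rose). Skeletal muscle markers (11 genes) summed to 6.43 to 254 CPM at t0 against 1.99 to 11.5 CPM at baseline (10 of 11 rose), and reached 125 to 1743 CPM at t2, 17.2 to 109 CPM in t4 mice and 19.3 to 1908 CPM in t6 mice. The only marker at 0 in all libraries of a group was Pvalb at baseline. What part these cells had in the rises of H2afx, Bard1 and Fancg, or in the later falls of Mre11a, Atm and Rad51b, was not tested.

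**Figure D5:**
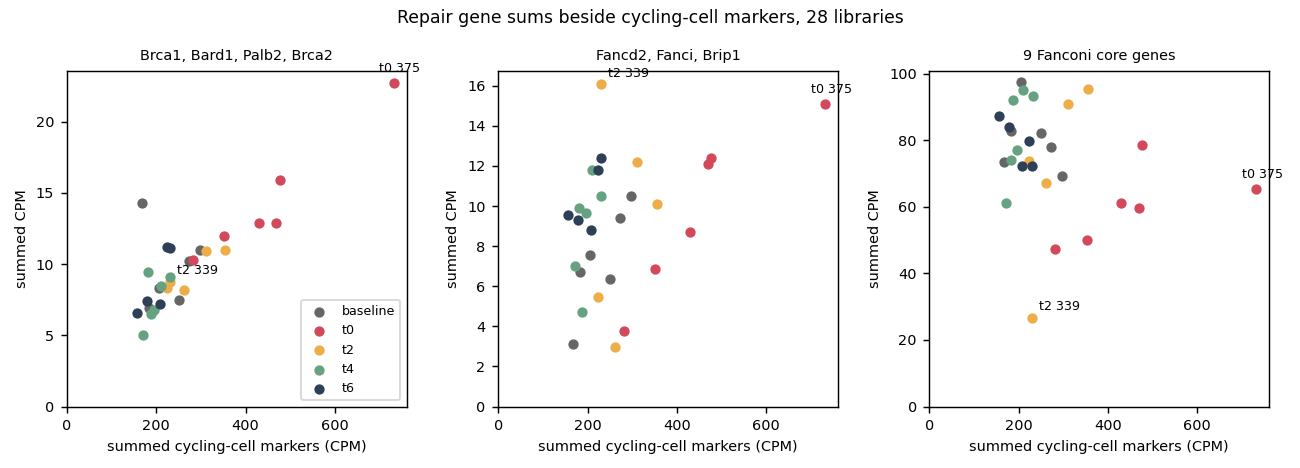
Summed CPM of 3 groups of repair genes (y axes, per the panel titles) against the summed CPM of 20 cycling-cell markers (x axis) in 28 Gprc5a-/- libraries, coloured by group. For the BRCA genes t0 375 is highest on both axes (732 and 22.7 CPM); for the Fanconi core the t0 libraries lie at 47.3 to 78.6 CPM and t2 339 lowest at 26.7 CPM.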

How the data were processed

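RNA from tracheal brushings of 34 mice (28 Gprc5a-/- and 6 wildtype) with an RNA integrity number of at least 7 was sequenced as poly-A libraries on an Ion Proton, per the labels' protocols. The authors deposited 1 table for the Gprc5a-/- mice. It is named for RPKM, a measure scaled by gene length and depth. Its values were instead taken as estimated counts per gene, since 76.3% of those above 0 are whole within 0.01. Its processing notes by the submitters name mm10, STAR 2.4.1d, Bowtie2 2.1.0 and Partek. The wildtype files hold TPM, FPKM and expected counts per gene, per the file headers. They come from RSEM 1.3.1 with STAR 2.7.0f on GRCm38, per the submitters' processing notes. The use of strand and the sharing of reads between genes are not given in the sources used here.

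Counts were rounded, 14847 genes that reached 1 CPM in 5 or more libraries were tested, and TMM scaling was used. The test was edgeR's quasi-likelihood F test (edgeR 4.0.16, R 4.3.3, robust), two-sided, with 1 mean per group over the 28 libraries, Benjamini-Hochberg adjustment over all genes and a threshold of 0.05. Alternatives were other scalings and filters, DESeq2 1.42.0, limma 3.58.1 on log2(CPM + 1) and log2(CPM + 0.1), only the groups compared, sex as a covariate, each library left out in turn and 5 libraries left out together. The fit was tested on simulated data. CPM in the text are TMM-scaled, and wildtype TPM are as deposited. Members and lists were chosen with earlier results of these data known. Values in every library or their lowest, median and highest are given for the 10 members with the smallest p over the 5 groups, those called at t0 (up to 6 each way), at t4 or t6, and the 6 with the smallest p at t6 against t0; other members are given by means, ranges or counts, and those singled out there were chosen after their values were seen. Of each other list, the 3 called genes with the smallest p at t0 are named. Nothing says how the mice were housed or handled in batches, so p-values measure the spread between these mice. Symbols matched for 37 of 37 members in both sources, and promoter windows for 28. Tables and plots used Python 3.11.15, numpy 2.4.6, pandas 2.3.3 and matplotlib 3.10.9.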

Additional observations from a re-analysis of the deposited data

Results flagged for a closer look

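Each of the 37 genes in each of the 5 groups was examined for a library far from the others of its group (Dixon's criterion at 95%). Of 185 gene and group pairs, 21 stood out, where chance alone gives about 1 in 20, or 9.2. The library labelled t2 339 accounted for 9, t4 336 for 6 and baseline 344 for 3.

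In t2 339, Fancg was at 1.52 CPM against 9.52 to 11.4 CPM in the other t2 libraries, Xrcc3 at 0.291 against 9.47 to 14.2, Fanca at 0.907 against 19.6 to 38.8, and Fance at 1.3 against 11.3 to 22.4 CPM. Fancm was at 0.421 CPM there against 4.27 to 6.85, Rad51c at 0.227 against 1.9 to 2.6, Atm at 9.03 against 15.9 to 19.8, and Chek1 at 0 against 1.22 to 1.78 CPM. Fancc went the other way in t2 339, at 17.8 CPM against 8.28 to 9.7 CPM. The same library detected 14283 genes and held 238 counts of Gprc5a, and whether these facts and its repair gene values are connected was not tested.

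In t4 336, Atm was low at 10.4 CPM against 15.6 to 18.4 CPM in the other t4 libraries, Rad51d at 6.16 against 14.9 to 20.1, Fancc at 4.08 against 6.65 to 8.33, and Fance at 12.7 against 15.7 to 17.9 CPM. Xrcc3 was high in it at 28.2 CPM against 13.8 to 17.9, and Rad51c at 3.04 against 0.753 to 1.39 CPM.

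In baseline 344, Topbp1 was low at 24.5 CPM against 30.5 to 34.1 CPM, Rad52 at 5.37 against 7.71 to 9.46, and Fanci at 0.11 against 1.45 to 2.75 CPM in the other baseline libraries. Fancb was high in baseline 343, at 4.72 CPM against 2.91 to 3.47 CPM. Palb2 was high in t0 375, at 4.17 CPM against 1.71 to 2.23, and Bard1 low in t6 366, at 0.426 CPM against 1.22 to 1.48 CPM.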

How the results depend on the processing

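The t0 calls of H2afx, Bard1, Fancg, Atr, Chek2 and Fancl were kept under every alternative run and without any single library. Over all member calls, 324 of the values under other settings kept their call and 44 lost it, and 879 kept and 73 lost it when 1 library was left out; none changed sign. Leaving out each library in turn gave 7 to 12 members called at t0, 4 to 9 at t2, 4 to 8 at t4, 0 to 4 at t6, 4 to 8 for t2 against t0, 6 to 17 for t6 against t0 and 9 to 22 over the 5 groups. The highest were without t2 339, except at t2 (9, without t2 347) and for t2 against t0 (8, without t0 359). The last stood beside 32.1% of all genes. The members' medians ranged then from 0.11 to 0.22 at t0, -0.22 to -0.04 at t2, -0.34 to -0.21 at t4, -0.22 to -0.04 at t6, -0.36 to -0.17 for t2 against t0 and -0.34 to -0.25 for t6 against t0.

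Library totals alone as scaling gave counts of 2 at t2, 0 at t6, 3 for t2 against t0 and 7 for t6 against t0. The shares of all genes called there were 17.2%, 5.61%, 25.3% and 36.7%. The members' medians were 0.33 at t0 and -0.42 for t6 against t0. That scaling moved the median of all genes at t0 to 0.19 from 0.02. Of the genes it called at t0, 69.4% had risen, against 51.1% with TMM. DESeq2's size factors gave 0 at t6, beside 8.61% of all genes. With haemoglobin genes and Rn45s left out, or with no filter on low counts, the count was 0 at t6 and 7 for t6 against t0. The shares of all genes were 8.69% and 37.3% in the first case, and 5.12% and 24.5% in the second. At t2, DESeq2, limma with a pseudocount of 1 and limma with 0.1 each called 9, beside 24.4%, 22.5% and 22.2% of all genes. Limma with 1 called 2 at t6, beside 10.1%, and gave a median of -0.20 for t6 against t0. Fits of only the 2 groups compared called 10 at t4, 5 at t6 and 2 for t2 against t0. Their shares of all genes called were 30.6%, 13.2% and 21.1%. Among genes with a mean of at least 5 CPM the medians were 0.06 at t6 and 0.03 for t6 against t0, over 21 members. Leaving out t0 357, t2 339, t4 371, t6 349 and t6 365 together gave 8 at t4, beside 23.6% of all genes. The members' median at t6 was then 0.04, and Mre11a was not called at t6 (adjusted p = 0.15). The cause of these shifts was not tested.

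No paired analysis was possible because each library is a separate mouse with its own animal number, shared by no other group. Depth limits the low members most. Bard1, Brip1, Rad54b, Chek1, Xrcc2, Ube2t, Brca1, Brca2, Palb2, Exo1, Blm, Rad51c, Rad54l, Fancb, Fancf and Fanci averaged under 5 CPM. For these genes, a change that missed the threshold is not shown to be absent.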
